A study of Mus musculus with 12 samples.

Results

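Itgam, Cx3cr1, P2ry12, Csf1r, Aif1, Tmem119 and C1qa are marker genes of microglia, and their rows were taken by symbol from a count table of nuclear RNA from sorted mouse hippocampal nuclei. They are 7 of the 24015 rows of the table, and all 7 symbols were found once. They were chosen because the markers had been seen to go apart in these data, with Itgam and Cx3cr1 higher and others lower in the group titled Late than in the group titled Basal. That difference is therefore described here without a test.

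The study follows hippocampal neurons that were active during a fear memory, through its formation and recall. The 12 libraries fall into 4 groups of 3 titled Basal, Early, Late and Reactivated. All 12 carry the same strain and genotype labels, a cross of ArcCreERT2 mice with mice of the R26R-STOP-floxed eYFP reporter, given as +/+. The tamoxifen-dependent Cre is driven from the Arc locus, so the reporter stays on in cells in which Arc was active around the time of the drug, and it marks no chosen cell type by itself. Mice were kept 24 h in the dark, received 4-Hydroxytamoxifen 1 h before contextual fear conditioning, and had their tissue taken 1.5 to 2 h later or on day 5, after a further 48 h in the dark. Some of the mice kept to day 5 met the cue again. The treatment label is identical in all 12 libraries, with collection on day 0, so the groups rest on the titles alone, and no label ties a title to a sorting gate. Age and sex are not given in the labels. Nuclei were fixed (1% paraformaldehyde), stained for the neuronal nuclear protein NeuN, for Arc and for GFP, and sorted, with 10000 nuclei and 10 to 12 pooled mice per condition. A replicate is read here as a separate pool of mice, which these numbers per condition do not settle.

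Microglia are the resident macrophages of the brain. They depend on signals through the receptor Csf1r, sense neuron-derived fractalkine through Cx3cr1 and extracellular nucleotides through P2ry12, and make complement C1q, which tags synapses that are then taken up through the complement receptor of which Itgam (CD11b) is the alpha chain. Tmem119 is a membrane protein and Aif1 (Iba1) a calcium-binding protein by which microglia are often recognized under the microscope. In the brain the 7 genes are largely restricted to microglia and related macrophages. Transcription of many microglial genes depends on the factor PU.1, encoded by Spi1.

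The sequence before the start of 4 of the 7 genes was at hand from RefSeq (GRCm38.p6), and it is shown because members that moved together can be compared with members that did not. The 250 bases before each start are written 5′ to 3′ along the gene's own strand, with capitals for GAGGAA, the core letters of PU.1 sites, searched on both strands (TTCCTC is the same letters on the other strand). Itgam's stretch lies at chr7:128062390-128062639 on the plus strand, Cx3cr1's at chr9:120068297-120068546, P2ry12's at chr3:59262986-59263235 and Aif1's at chr17:35176053-35176302, all 3 on the minus strand.
Itgam: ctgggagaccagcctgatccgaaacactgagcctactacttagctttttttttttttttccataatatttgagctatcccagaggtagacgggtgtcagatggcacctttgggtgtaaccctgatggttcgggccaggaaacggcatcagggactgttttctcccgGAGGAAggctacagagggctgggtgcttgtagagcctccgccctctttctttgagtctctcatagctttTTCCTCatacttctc
Cx3cr1: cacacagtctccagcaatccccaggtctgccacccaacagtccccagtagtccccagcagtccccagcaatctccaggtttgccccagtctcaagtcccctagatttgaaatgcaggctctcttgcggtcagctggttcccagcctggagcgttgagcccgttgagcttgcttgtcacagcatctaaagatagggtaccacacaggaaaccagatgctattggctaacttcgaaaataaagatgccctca
P2ry12: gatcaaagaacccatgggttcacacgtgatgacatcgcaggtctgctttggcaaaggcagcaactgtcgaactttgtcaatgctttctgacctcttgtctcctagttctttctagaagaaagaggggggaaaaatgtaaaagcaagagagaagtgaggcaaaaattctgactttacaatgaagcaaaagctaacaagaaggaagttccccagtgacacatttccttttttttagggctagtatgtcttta
Aif1: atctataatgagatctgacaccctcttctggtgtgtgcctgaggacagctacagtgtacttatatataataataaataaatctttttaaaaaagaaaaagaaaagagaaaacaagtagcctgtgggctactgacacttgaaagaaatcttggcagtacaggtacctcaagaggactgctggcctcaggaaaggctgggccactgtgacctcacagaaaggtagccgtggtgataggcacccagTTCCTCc
Itgam had 2 matches, beginning 84 and 15 bases before the start, and Aif1 had 1, beginning 7 bases before it. Cx3cr1 and P2ry12 had 0 in this window. Of all 32851 promoters of the same length, 23.3% held GAGGAA. The letters TGANTCA of the factor AP-1, also searched on both strands, were in none of the 4 stretches and in 6.75% of all promoters. Itgam and Cx3cr1 thus differ in these letters, and a match is a description of the sequence only.

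Total counts ran from 4838166 to 11120255 per library. The row of the ribosomal RNA precursor Rn45s took 4.72% to 12.9% of the counts in Basal and Early libraries and 18.8% to 36.5% in Late and Reactivated ones. Rbfox3, which encodes NeuN, gave 1596 to 2346 normalized counts in all 12 libraries. The Late libraries held the top of this range, from 2138 upward. Late against Basal gave it a log2 fold change of 0.35 ± 0.13 (SE), and these groups did not overlap for 62.5% of all tested genes. Its presence does not show that nuclei of other cells were absent. Normalized counts are counts divided by each library's relative effective size after TMM scaling. Reactivated 1 was the highest of its group for 37.1% of all tested genes and for 6 of the 7 members, all but Aif1. Summed vessel markers (12 genes) reached 749 normalized counts in Basal 1 and 352 in Reactivated 1, against 67.3 to 163 in the other 10 libraries. In Reactivated 1 the pan-leukocyte gene Ptprc stood at 57.8, against 0 to 9.77 elsewhere, and the T cell gene Cd2 at 63.3, against 0 to 4.44 elsewhere. Summed astrocyte markers (10 genes) reached 8494 in Reactivated 1, against 2873 to 5338 elsewhere. Summed oligodendrocyte markers (10 genes) stood at 7726 there. They ran from 1700 to 3464 over the Basal, Early and other Reactivated libraries and from 4768 to 9980 over Late. The part of these other cell types in the members' values was not tested. In sorted bulk nuclei, fewer nuclei of a type and less RNA per nucleus cannot be told apart.

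Itgam and Cx3cr1 were low and even in Basal and Early, more than 10-fold higher in Late, and between these in Reactivated. Itgam, the integrin alpha chain, had 242, 299 and 312 normalized counts in the Basal libraries, 268, 245 and 338 in those of Early, 4505, 3733 and 3224 in those of Late, and 903, 485 and 365 in the Reactivated ones. The lowest Late library lay far above the highest library of every other group, and the 3 Reactivated libraries lay above all 6 Basal and Early ones. Groups did not overlap for 62.5% of all tested genes in Late against Basal, 59.9% in Late against Early, 39.7% in Reactivated against Late and 45.8% in Reactivated against Basal, so standing apart is common in these libraries. The group means were 284 ± 37.0, 284 ± 48.6, 3820 ± 645 and 584 ± 283 (SD, n = 3). Cx3cr1, the fractalkine receptor, had 284, 346 and 361 normalized counts in the Basal libraries, 299, 298 and 364 in those of Early, 5181, 3962 and 2381 in those of Late, and 944, 565 and 377 in the Reactivated ones. Late again stood apart, while Reactivated 3 was only just above the highest Basal and Early libraries. Its means were 330 ± 40.9, 320 ± 38.0, 3841 ± 1404 and 629 ± 289 (SD, n = 3). Late exceeded Basal by a log2 fold change of 3.74 ± 0.29 (SE) for Itgam, or 13.4-fold, and of 3.54 ± 0.32 for Cx3cr1, or 11.6-fold. Of the 15668 genes tested, 117 had a larger value than Itgam and 148 a larger one than Cx3cr1. Each order of group levels puts Late first and Reactivated next, and Basal and Early did not differ beyond their spread for either gene.

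P2ry12 and Csf1r took the opposite course in Late. P2ry12, the nucleotide receptor, had 72.5, 52.8 and 54.5 normalized counts in the Basal libraries, 31.3, 47.6 and 19.2 in those of Early, 15.6, 9.25 and 19.6 in those of Late, and 103, 26.4 and 26.6 in the Reactivated ones. Every Basal library lay above every Early and Late library (Early and Basal did not overlap for 23.4% of all tested genes), Early 3 lay inside the Late range, and the Reactivated mean of 52.1 ± 44.3 (SD, n = 3) was carried by its first library. Csf1r, the receptor for the survival factors Csf1 and Il34, had 40.2, 35.9 and 42.3 normalized counts in the Basal libraries, 14.6, 29.0 and 35.1 in those of Early, 12.0, 14.5 and 15.9 in those of Late, and 46.8, 12.3 and 29.3 in the Reactivated ones. Late lay below all Basal libraries, while Early 1 and Reactivated 2 were inside the Late range. Late and Basal did not overlap for 62.5% of all tested genes. Late was below Basal by a log2 fold change of -1.97 ± 0.54 (SE) for P2ry12 and of -1.47 ± 0.46 for Csf1r. Counts behind the Late values were small, with 7 to 21 reads for P2ry12 and 10 to 17 for Csf1r. By its mean Late was the lowest group for both genes and Basal the highest, and Early and Reactivated overlapped.

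**Figure D1:**
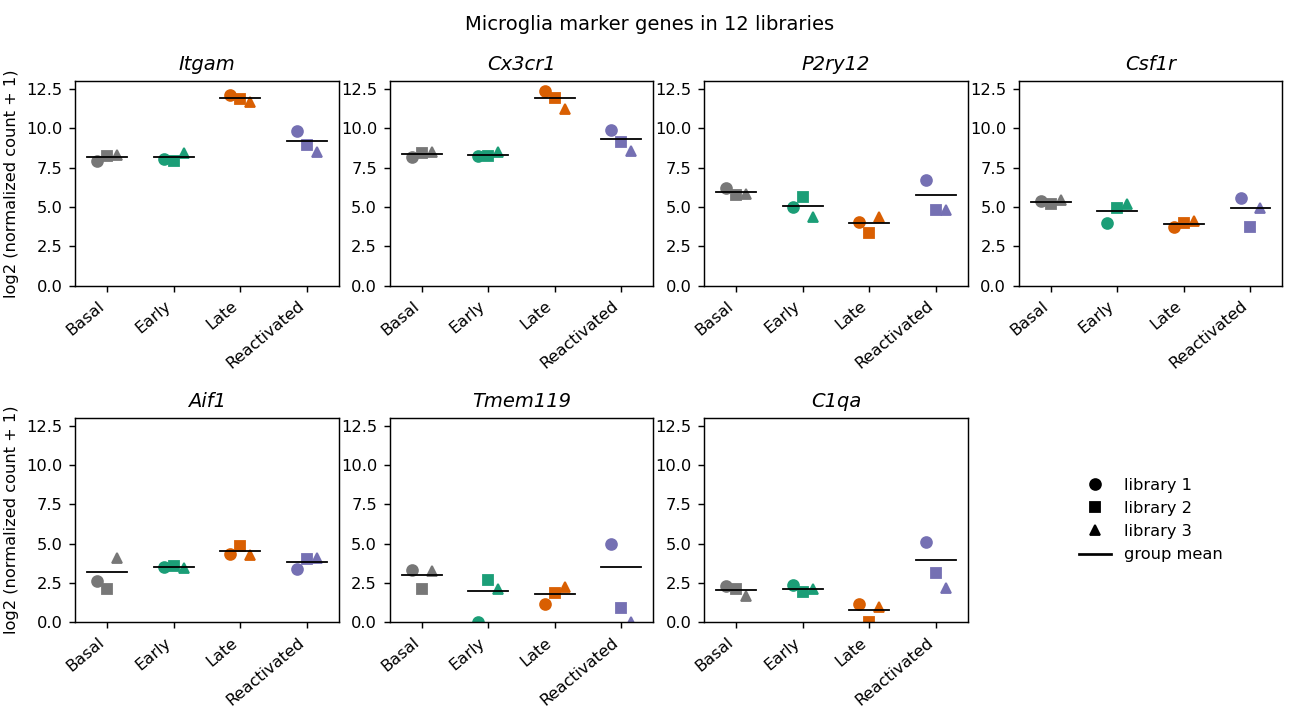
Each panel plots 1 microglia marker gene in the 12 libraries, with log2 of the normalized count plus 1 on the vertical axis and the 4 groups on the horizontal axis; marker shapes are the library numbers and lines the log2 of the group mean plus 1. Itgam and Cx3cr1 stand high in the 3 Late libraries, P2ry12 and Csf1r low, and Reactivated 1 is the top Reactivated point in every panel but that of Aif1.

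Aif1, the calcium-binding Iba1, was near the counting limit. It had 5.18, 3.37 and 15.8 normalized counts in the Basal libraries, 10.4, 11.0 and 10.0 in those of Early, 19.2, 27.7 and 18.7 in those of Late, and 9.64, 15.0 and 16.0 in the Reactivated ones. The Late libraries were the 3 highest of the 12, on 16 to 21 reads, but Basal 3 and Reactivated 3 came close. Groups did not overlap for 62.5% of all tested genes in Late against Basal, 59.9% in Late against Early and 39.7% in Reactivated against Late. Late against Basal gave a log2 fold change of 1.32 ± 0.52 (SE), which was 2.33 without Basal 3.

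Tmem119 and C1qa did not pass the filter on low counts (10 or more counts in 3 or more libraries). Tmem119 had 9.07, 3.37 and 8.61 normalized counts in the Basal libraries, 0, 5.52 and 3.34 in those of Early, 1.20, 2.64 and 3.74 in those of Late, and 30.3, 0.88 and 0 in the Reactivated ones. The 2 libraries at 0, Early 1 and Reactivated 3, allow up to 3.13 and 2.66 normalized counts, the value of 3 reads, for counting error only. C1qa, the A chain of complement C1q, had 3.89, 3.37 and 2.15 normalized counts in the Basal libraries, 4.18, 2.76 and 3.34 in those of Early, 1.20, 0 and 0.934 in those of Late, and 33.0, 7.92 and 3.55 in the Reactivated ones. A count of 0 in Late 2 allows up to 3.96. Apart from Reactivated 1, Tmem119 had 0 to 12 reads per library and C1qa 0 to 9.

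The other comparisons of the 5 members that passed the filter are set side by side. Early against Basal gave log2 fold changes of -0.01 ± 0.27 (SE) for Itgam, -0.05 ± 0.30 for Cx3cr1, -0.85 ± 0.49 for P2ry12, -0.58 ± 0.42 for Csf1r and 0.28 ± 0.54 for Aif1. Late against Early gave 3.75 ± 0.29, 3.58 ± 0.32, -1.12 ± 0.55, -0.89 ± 0.46 and 1.04 ± 0.51 for the same genes in that order. Reactivated against Basal gave 1.03 ± 0.27, 0.92 ± 0.30, -0.24 ± 0.48, -0.46 ± 0.43 and 0.66 ± 0.53. These values rest in part on Reactivated 1, without which Itgam gave 0.58, Cx3cr1 0.51, P2ry12 -1.17 and Csf1r -0.92. Reactivated against Late gave -2.72 ± 0.27, -2.62 ± 0.31, 1.73 ± 0.54, 1.01 ± 0.47 and -0.66 ± 0.50, with the signs of Late against Basal turned for all 5. Without Reactivated 1, P2ry12 gave 0.80 and Csf1r 0.55 there. These comparisons share libraries with the one in which the split was seen and carry no p.

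**Figure D2:**
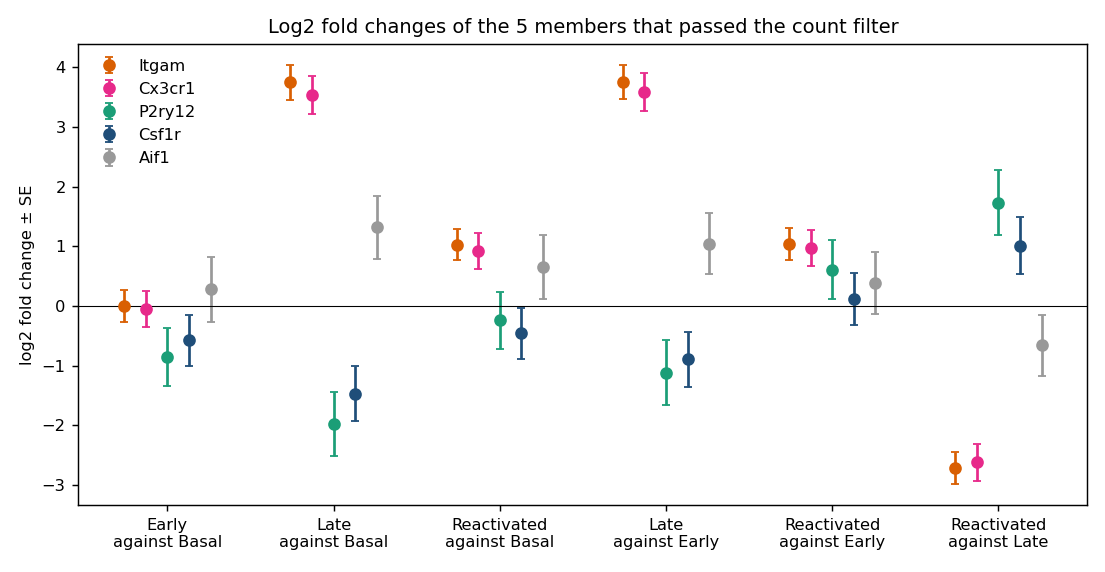
Log2 fold changes (vertical axis) with standard errors (bars) of the 5 members that passed the count filter, in the 6 comparisons of the 4 groups (horizontal axis). Itgam and Cx3cr1 lie together above 3.5 in both comparisons of Late with an earlier group while P2ry12 and Csf1r lie below 0.

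Reactivated against Early is the comparison whose 6 libraries were not those in which the split was seen, and members were tested there. Itgam rose by a log2 fold change of 1.04 ± 0.26 (edgeR quasi-likelihood test with Benjamini-Hochberg adjustment, adjusted p = 0.0125), with 3 of 3 Reactivated libraries above all Early ones (no overlap in 39.1% of all tested genes). Cx3cr1 rose by 0.97 ± 0.30 (adjusted p = 0.0288), also with 3 of 3 libraries above Early. P2ry12 (0.61 ± 0.49, adjusted p = 0.376), Csf1r (0.12 ± 0.43, adjusted p = 0.866) and Aif1 (0.38 ± 0.52, adjusted p = 0.614) did not pass. So 2 of the 5 tested members were called, against 26.2% of all tested genes. Without the filter, C1qa gave 2.03 ± 0.87 (adjusted p = 0.110) and Tmem119 1.57 ± 1.15 (adjusted p = 0.376). Without Reactivated 1, Itgam gave 0.58 (adjusted p = 0.0498) and Cx3cr1 0.56 (adjusted p = 0.149), and the signs of P2ry12 and Csf1r turned, to -0.31 and -0.35. Without Early 1 or Early 2, neither gene passed, with adjusted p = 0.0541 and 0.0641 for Itgam and 0.0980 and 0.101 for Cx3cr1.

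Itgam and Cx3cr1 moved together within groups as well as between them. On log2 CPM (prior count 2), Pearson's r between them was 0.995 and Spearman's rho 1 over the 12 libraries. Pearson's r was 0.996 without Late 1 and Late 2 and 0.993 over the 9 libraries without any of Late, and the deviations from the group means gave 0.918. These correlations are descriptions over libraries that share 4 groups and carry no p. The ratio of Cx3cr1 to Itgam counts lay between 1.03 and 1.22 in 11 libraries and at 0.739 in Late 3. P2ry12 and Csf1r went together less closely, with r = 0.757 over all 12 libraries, 0.597 without Late and 0.456 for deviations. Between the pairs, Itgam with P2ry12 gave -0.611 and Cx3cr1 with Csf1r -0.589, but 0.270 and 0.0891 without Late. Aif1 gave 0.671 with Itgam and -0.699 with P2ry12.

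The 3 genes most alike to Itgam and the 3 most alike to Cx3cr1 over the 12 libraries were in none of the microglia lists. Those nearest to Itgam were Cd3d (r = 0.997), a chain of the T cell receptor complex, Rgs9bp (0.997), an anchor of the signalling regulator Rgs9, and Ap3s2 (0.997), a subunit of an endosomal adaptor. Nearest to Cx3cr1 were Slc35d1 (0.997), a nucleotide sugar transporter, Cd274 (0.997), which encodes the checkpoint ligand PD-L1, and Myoz3 (0.996), a sarcomere protein. With r of at least 0.98 there were 82 genes for Itgam and 83 for Cx3cr1, of 11096 candidates, and Cx3cr1 came 7th for Itgam and Itgam 8th for Cx3cr1. Cd3d had 267, 272 and 310 normalized counts in the Basal libraries, 268, 252 and 313 in those of Early, 3454, 3004 and 2912 in those of Late, and 701, 413 and 374 in the Reactivated ones. Late against Basal gave a log2 fold change of 3.46 ± 0.22 (SE), which is a description, since the gene was chosen for its likeness to Itgam in these libraries. Pearson's r does not measure the size of a change. Ap3s2 gave only 1.67 in Late against Basal, from 205 ± 12.9 to 655 ± 74.8 normalized counts (SD, n = 3). Rgs9bp, Slc35d1, Cd274 and Myoz3 gave 3.31 to 4.38, likewise as descriptions.

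**Figure D3:**
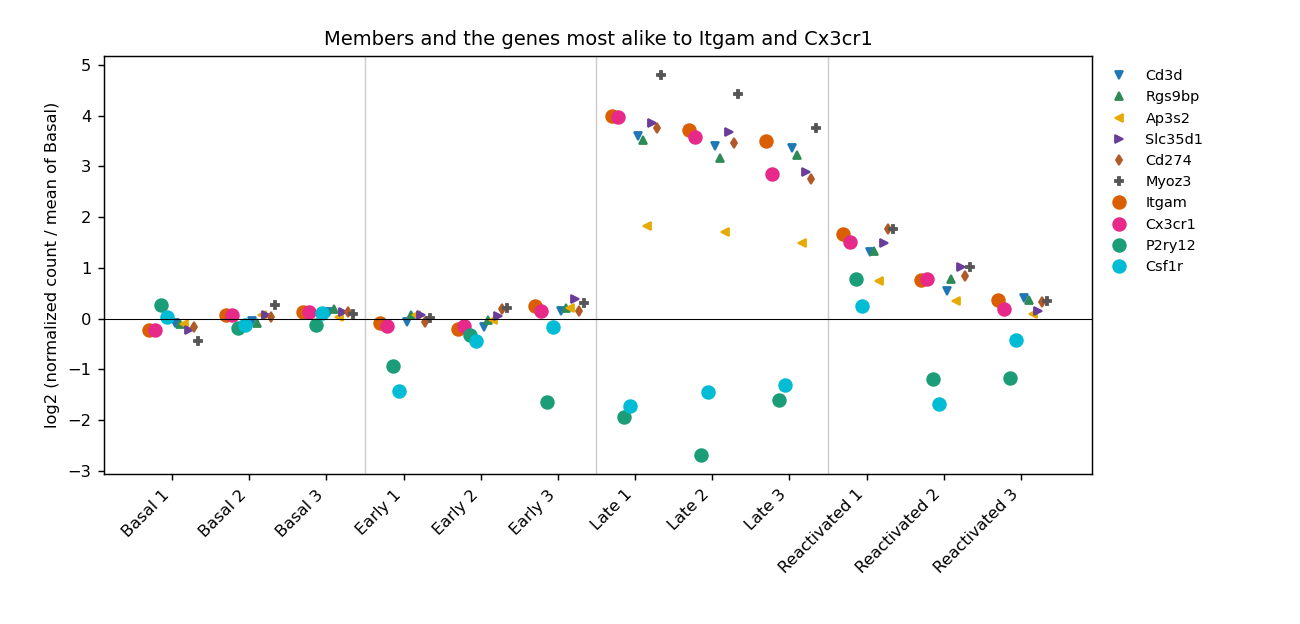
Log2 of the normalized count over the gene's Basal mean (vertical axis) in each of the 12 libraries (horizontal axis), for Itgam, Cx3cr1, P2ry12 and Csf1r (large circles) and the 3 genes most alike to Itgam and to Cx3cr1 (small symbols). All 6 alike genes are raised in the 3 Late libraries with Itgam and Cx3cr1, where P2ry12 and Csf1r lie below 0.

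P2ry12 and Csf1r had other company. The genes most alike to P2ry12 were Sepp1 (r = 0.924), the selenium carrier selenoprotein P, Vmn2r29 (0.919), a vomeronasal receptor, and Prkacb (0.917), a catalytic subunit of protein kinase A. Those most alike to Csf1r were Zfp507 (0.928), Ptchd2 (0.927) and Rbmxl1 (0.911). For Aif1 they were Stac2 (0.965), Coro2a (0.957) and Limk1 (0.939). None of these 3 members had a gene at r of 0.98 or above.

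The products with which the members work were in part near 0. Itgb2, the beta chain without which the Itgam protein does not reach the surface as a receptor, had means of 1.15 to 3.02 normalized counts in the 4 groups. Tyrobp, the adaptor of several microglial receptors, was at 0 to 2.05, and the integrin genes beside Itgam in function, Itgax, Itgad and Itgal, at 0 to 5.68. Among the 10 of 19 ligands and partners that were tested, 3 passed in Late against Basal (49.1% of all tested genes were called), 2 higher and 1 lower. Csf1, a ligand of Csf1r, fell by a log2 fold change of -1.85 ± 0.23 (adjusted p = 1.87e-05) and Il34, its other ligand, rose by 1.08 ± 0.29 (adjusted p = 0.00722). Both were already changed in Early against Basal (6.03% of all genes called), by -1.43 ± 0.22 (adjusted p = 0.00113) and 1.22 ± 0.29 (adjusted p = 0.0209). Gnai2, a G protein subunit through which receptors such as P2ry12 and Cx3cr1 signal, rose by 0.57 ± 0.18 in Late against Basal (adjusted p = 0.0180) and by 0.70 ± 0.18 in Reactivated against Early (adjusted p = 0.0134). Cx3cl1, the fractalkine ligand, gave -0.22 ± 0.24 in Late against Basal (adjusted p = 0.477), with means of 940 ± 291 and 806 ± 134 (SD, n = 3). The list's median log2 fold change in Late against Basal was 0.20, against -0.03 over all genes.

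Further microglia genes went mostly with P2ry12 and Csf1r in Late. Of 37 such genes, 26 were tested, and 17 passed in Late against Basal, 4 higher (25.4% of all genes tested) and 13 lower (23.6%), with a median log2 fold change of -1.39. Tgfbr1, a receptor of the TGF-beta signal that maintains microglia, fell by -3.59 ± 0.52 (adjusted p = 7.29e-05), Cd84, a SLAM family receptor, by -2.06 ± 0.34 (adjusted p = 0.000203), and Csf3r, the G-CSF receptor, by -1.45 ± 0.26 (adjusted p = 0.000332). Siglech, a sialic acid binding lectin, rose by 1.73 ± 0.23 (adjusted p = 3.58e-05), from 111 ± 34.2 to 372 ± 57.1 normalized counts (SD, n = 3). The other genes higher in Late were Cd33, Ltc4s and Golm1. Without Late 2 the count was 8, without Basal 1 it was 10 and without Late 3 it was 11, and with libraries scaled to the same total 1 was higher and 19 lower (upper quartile scaling: 2 and 15).

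In Early against Basal 2 of the 26 passed, Cyth4 and Tgfbr1, both lower (2.66% of all genes were called lower and 3.36% higher), and neither call held without Basal 1, Basal 2 or any 1 Early library. Reactivated against Basal gave 7 of 26 (39.4% of all genes called), 1 higher (20.6%) and 6 lower (18.8%), and 11 without Basal 3. Late against Early gave 14 (42.3%), 3 higher (22% of all genes) and 11 lower (20.4%), 8 without Early 1 or Late 2, and 2 higher with 16 lower when scaled to the same total. In Reactivated against Early 6 of 26 passed (26.2%), 1 higher (13.5%) and 5 lower (12.7%). Siglech rose by 1.13 ± 0.23 (adjusted p = 0.00421). Among those that fell were Cd84 (-1.67 ± 0.33, adjusted p = 0.00365), Hpgds (-1.08 ± 0.26, adjusted p = 0.00887) and Csf3r (-0.95 ± 0.25, adjusted p = 0.0135). That count was 2 without Early 2 and 3 without Early 1. Reactivated against Late gave 6 (22.6%), 4 higher (10.3%) and 2 lower (12.3%), 8 that were all higher when scaled to the same total, 1 to 3 without a Late library and 3 without Reactivated 3. Siglech thus moved in the direction of Itgam and Cx3cr1 in both comparisons, and most of the list did not.

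**Figure D4:**
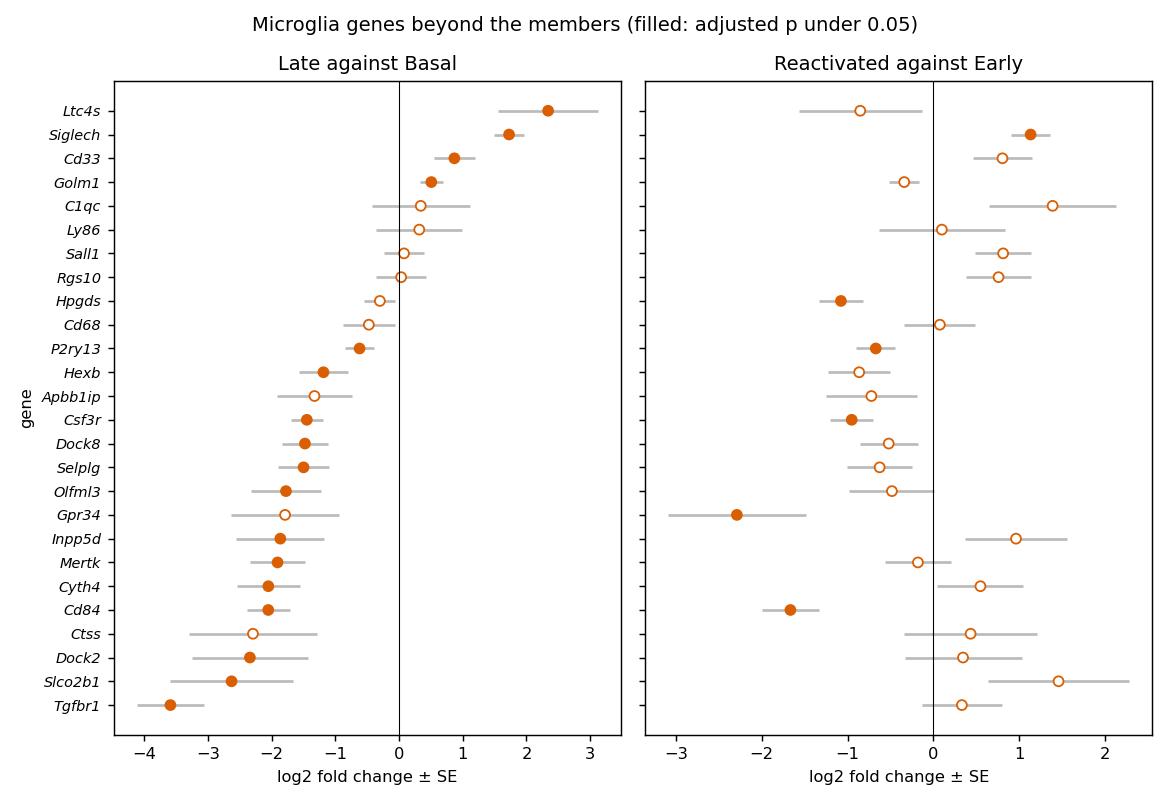
Log2 fold changes (horizontal axis) with standard errors (bars) of the 26 tested microglia genes beyond the members (vertical axis), in Late against Basal and in Reactivated against Early; filled points passed an adjusted p of 0.05. In Late against Basal 13 filled points lie below 0 and 4 above it, and in Reactivated against Early 5 lie below and 1 above.

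Transcription factors of the myeloid lineage were called about as often as other genes in Late. Spi1, which encodes PU.1, had group means of 0.23 to 1.47 normalized counts and Irf8 of 0.755 to 5.37, and neither was tested. Of the 10 of 13 that were tested, 6 passed in Late against Basal (49.1% of all tested genes were called), 3 higher (25.4%) and 3 lower (23.6%). Among them Runx1 rose by 1.49 ± 0.23 (adjusted p = 0.000105) and Cebpb by 1.31 ± 0.20 (adjusted p = 9.91e-05), while Mef2a fell by -1.21 ± 0.16 (adjusted p = 3.38e-05), Smad3 by -0.90 ± 0.16 (adjusted p = 0.000428) and Mef2c by -0.48 ± 0.17 (adjusted p = 0.0309). These factors also act in neurons and other cells.

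Markers of other cells that a sort of nuclei could hold were counted in the same way. Of 20 border macrophage and blood myeloid genes in the table, 13 were under 10 counts in every library and Cbr2, Cd209f, Ly6c2 and S100a9 were at 0 throughout. Their summed level ran from 930 to 1526 over the Basal libraries, from 1001 to 1610 over Early, from 709 to 736 over Late and from 546 to 840 over Reactivated, and most of it in every library was Itga4, an integrin gene with 487 to 1444 normalized counts. Of the 5 tested, 3 passed in Late against Basal (49.1% of all tested genes were called), Clec7a higher (1.18 ± 0.29, adjusted p = 0.00366) and Itga4 (-1.05 ± 0.21, adjusted p = 0.00106) and Cd163 (adjusted p = 0.0255) lower. In Reactivated against Early 4 of the 5 passed, all lower (26.2% of all tested genes were called, 12.7% lower), with Ccr2, a receptor of blood monocytes, at -1.92 ± 0.51 (adjusted p = 0.0147). Of 12 T and NK cell genes, Cd3g and Gzma were at 0 throughout, and the summed level of 3055 to 3630 in Late against 390 to 427 in Basal and Early was almost all Cd3d. Its partner Cd3e had means of 1.20 to 3.88. Of the 4 tested, 3 passed in Late against Basal, against 49.1% of all tested genes, Cd3d and Cd4 higher and Cd8a lower.

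A gene with the Late pattern was also found in the astrocyte list. Sox9, an astrocyte factor, rose by 3.78 ± 0.32 in Late against Basal (adjusted p = 7.34e-07) while 3 of the 10 astrocyte genes tested fell and 2 rose, itself included. Called in this comparison were 49.1% of all tested genes, 25.4% higher and 23.6% lower, and the lists that follow are read against these shares. Of the 9 oligodendrocyte genes tested 5 fell, among them Mog by -2.23 ± 0.48 (adjusted p = 0.00150), and 3 rose. Of 14 neuron genes 8 passed, 7 higher, led by Stmn2 (2.33 ± 0.26, adjusted p = 6.05e-06), and 1 lower. Of 7 vessel genes tested 3 passed, all lower (Tek, Flt1 and Vwf). In the Basal libraries Vwf stood at 260, 1.12 and 5.02 normalized counts and Flt1 at 172, 20.2 and 4.30, so Basal 1 carried the Basal mean of both. In Reactivated against Early 26.2% of all tested genes were called, 13.5% higher and 12.7% lower. There 6 of the 9 oligodendrocyte genes passed, 5 higher and 1 lower, and 2 of the 10 astrocyte genes, Sox9 and Gfap, both higher. Of the 14 neuron genes 7 passed, 6 higher and 1 lower, and of the 7 vessel genes 2, 1 higher and 1 lower. Of the 4 T and NK cell genes 2 passed, Cd3d higher and Cd8a lower. These lists were not recounted without Reactivated 1. In Late 1, 2 and 3 Sox9 stood at 2623, 2181 and 1148 normalized counts, the same order of libraries as for Cx3cr1. What this likeness comes from was not tested.

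The tested genes beside Cx3cr1 in the genome had smaller Late differences than it had, and called genes beside P2ry12 were lower in Late, as it was. Among the 3 nearest table rows on each side in RefSeq order (GRCm38.p6, used for names and order only), 28 of 42 were tested, and 12 were higher and 5 lower in Late against Basal, where 25.4% of all tested genes were called higher and 23.6% lower. Around Itgam, Pycard gave -0.69 ± 0.38 and Trim72 0.57 ± 0.49. Around Cx3cr1 the log2 fold changes ran from -0.71 to 1.31, with Csrnp1 at the top. Around P2ry12, F630111L10Rik (-1.36 ± 0.27) and the related receptor gene P2ry13 (-0.62 ± 0.23) fell. Of the called neighbours of the other members, Slc6a7 near Csf1r, Bag6 and Prrc2a near Aif1, Sart3, Coro1c and Ssh1 near Tmem119 and Ephb2, Epha8 and Zbtb40 near C1qa rose in Late against Basal, by 0.53 to 2.76, and Selplg near Tmem119 fell by -1.50 ± 0.40. P2ry12 lies opposite Med12l, which gave -0.24 ± 0.11 in Late against Basal (adjusted p = 0.0968), and Csf1r opposite Hmgxb3, which fell by -0.40 ± 0.14 (adjusted p = 0.0286). The strand setting of the counting is not given in the sources used here, so reads of P2ry12 or Csf1r and of these partners cannot be told apart with certainty. The annotated span of Cx3cr1 overlaps Csrnp1 on the same strand, which rose by 1.31 ± 0.42 in Late against Basal (adjusted p = 0.0177). It also overlaps Wdr48 and Gorasp1 among others, which gave -0.22 ± 0.18 and 0.45 ± 0.20. Itgam's span overlaps Gm49368 on the same strand, a gene without a row of its own here. Reads of Cx3cr1 or Itgam and of these genes cannot be told apart with certainty either. The longest stretch that annotated transcripts of Itgam and Cx3cr1 had in common on either strand was 20 bases, and it was 52 bases for Cx3cr1 and Cd274.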

How the data were processed

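Nuclear RNA of 12 libraries was analysed from 1 table of counts per gene symbol that the authors deposited. Per the submitters' processing notes, Bowtie2 2.0, Cufflinks 2.2, DESeq2 and the build mm9 were used. Which tool counted the reads, on which annotation and with which strand setting, is not given in the sources used here. Its name calls the table normalized, but the deposited counts are whole numbers with unequal totals and size factors of 0.734 to 1.46, so they were treated as raw counts. Taking them as normalized is an alternative. The labels describe library preparation both by a stranded total RNA kit and as SmartSeq2.

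The 15668 genes with 10 or more counts in 3 or more libraries were tested with edgeR 4.0.16 in R 4.3.3 (quasi-likelihood, TMM, 4 group means over all 12 libraries), two-sided, with Benjamini-Hochberg adjustment over all tested genes and a threshold of 0.05. "Rose" and "fell" mean past that threshold. The script was tested on simulated counts. The p-values measure the spread between libraries, which are read here as pools of mice.

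The members and gene lists were chosen with earlier results of these data known. Genes were named by rule: all members, up to 4 genes per list by p-value in Late against Basal and Reactivated against Early, the 3 genes most alike to each member (mean of at least 50 in the highest group, unnamed models left out) and called neighbours. Some genes that this rule names are left out of the text. Other genes (Rbfox3, Ptprc, Cd2, the ligands, genes near 0 and those named with a count) were chosen after their values were seen. Same-numbered libraries deviated together in Early and Basal (r = 0.33, 0.14 and 0.48, from the data, not the labels), and not in Reactivated and Early (-0.04, -0.04 and -0.10). Promoter and transcript sequences are of GRCm38, not of the authors' build, and no position was carried between builds. Alternatives covered scaling, filters, DESeq2 1.42.0, a replicate block and leaving out each library.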

Additional observations from a re-analysis of the deposited data

How the results depend on the processing

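In Reactivated against Early, Itgam and Cx3cr1 stayed higher under every setting run, but not always past the threshold. With the table taken as already normalized the log2 fold changes were 0.67 (adjusted p = 0.277) and 0.60 (adjusted p = 0.340), and with libraries scaled to the same total Cx3cr1 gave 0.55 (adjusted p = 0.0845). With Basal 1 and Reactivated 1 left out together, a choice made after seeing the data, they gave 0.58 (adjusted p = 0.0530) and 0.55 (adjusted p = 0.160), and P2ry12 gave -0.31 and Csf1r -0.35. Leaving out 1 library at a time gave 0.58 to 1.29 for Itgam, 0.56 to 1.23 for Cx3cr1, -0.31 to 1.01 for P2ry12 and -0.35 to 0.50 for Csf1r. Csf1r was -0.15 without Early 1, -0.27 with the same total and -0.27 as deposited, and Aif1 was -0.0019 with the same total. The number of members called, 2, became 1 with the same total, 0 as deposited, 0 with both libraries left out, and 0 to 2 with 1 library left out. The cause was not tested.

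For the further microglia genes, leaving out 1 library gave 0 to 3 calls in Early against Basal, 8 to 19 in Late against Basal, 5 to 11 in Reactivated against Basal, 8 to 14 in Late against Early, 2 to 7 in Reactivated against Early and 1 to 8 in Reactivated against Late. Scaling to the same total gave 13 in Reactivated against Basal, and leaving out both libraries gave 11 in Late against Basal. That scaling shifts the median of all genes by -0.87 in Late against Basal, -0.78 in Late against Early, -0.46 in Reactivated against Basal, -0.37 in Reactivated against Early and 0.38 in Reactivated against Late. Under it Itgam was still 2.89 and Cx3cr1 2.66 above Basal in Late, and P2ry12 -2.80 and Csf1r -2.29. A replicate block gave Itgam 0.98 (adjusted p = 0.0177) and Cx3cr1 0.89 (adjusted p = 0.0365) in Reactivated against Early, left 2 calls in Early against Basal, where the numbers pair the libraries, and changed no member's call. Depth limits Aif1, Tmem119 and C1qa most.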
